A study of Mus musculus with 8 samples.

Results

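The 5hmC estimate of control neural precursor cells (NPCs) was described from the 4 libraries that carried the Scrambled control shRNA (shScr). They were 2 BS libraries and 2 oxBS libraries, out of 8 libraries in the series. In a BS library both 5mC and 5hmC are read as C, and in an oxBS library only 5mC is, because KRuO4 oxidation before the bisulfite step turns 5hmC into a base that is read as T. The BS level minus the oxBS level of the same DNA sample was therefore taken as the estimate of 5hmC. A CpG was kept when at least 10 calls covered it in each of the 4 libraries, which left 632977 of the 757812 CpGs listed.

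5hmC is made from 5mC by the TET dioxygenases (TET1, TET2 and TET3), and can be oxidised further, excised by the base excision repair machinery or diluted by replication. It is known to be abundant in neurons and in ES cells, where it is found mainly at enhancers and in gene bodies and is scarce at unmethylated CpG islands. A subtraction of 2 noisy levels can fall below 0, which no amount of 5hmC can give, so CpGs and windows with BS below oxBS show how large a difference arises without it.

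The cells came from A2lox.cre mouse ES cells, a male line in which a single doxycycline-inducible shRNA cassette is inserted by Cre recombination, with resistant clones expanded after selection. They were differentiated through cellular aggregates with retinoic acid to NPCs. All groups, controls included, received doxycycline at 2 µg/ml for 5 days. The groups used here are shScr BS, shScr oxBS, shTet3 BS and shTet3 oxBS, each with 2 replicates, and shTet3 carries an shRNA against *Tet3*. From each DNA sample of 100 ng, digested with MspI (which cuts CCGG), one part of the library was oxidised and the other was not, so a BS and an oxBS library with the same replicate number share their DNA. The labels do not say whether the replicates were separate clones or cultures, and the spread between them may be partly technical. DNA methylation does not measure expression, so the identity of the cells as NPCs could not be checked from their marker genes' transcripts.

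Because the enzyme leaves short fragments, most of the CpGs of a window lay within 1 or 2 fragments and were read from the same DNA molecules. This can be seen in the stretches of the mm9 forward strand given here, which run from the first to the last covered CpG of a window with a few flanking bases, and in which the covered CpGs are in capitals. The first 4 are windows with BS above oxBS in which the replicates were alike or the call survived a test with overdispersion, the next 2 are windows with BS below oxBS, and the last 4 lie in genes of the TET pathway, of neural identity and of imprinting.
Irgm1, chr11:48685571-48685682: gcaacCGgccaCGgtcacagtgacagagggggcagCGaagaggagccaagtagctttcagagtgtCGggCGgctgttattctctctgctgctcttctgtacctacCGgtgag
Bod1, chr11:31506504-31506628: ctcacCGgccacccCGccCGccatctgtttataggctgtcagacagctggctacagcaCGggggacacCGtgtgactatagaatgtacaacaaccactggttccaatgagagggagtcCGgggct
F9, chrX:57182523-57182614: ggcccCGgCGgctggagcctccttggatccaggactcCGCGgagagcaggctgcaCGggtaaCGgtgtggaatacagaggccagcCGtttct
Gm5114, chr7:46610323-46610419: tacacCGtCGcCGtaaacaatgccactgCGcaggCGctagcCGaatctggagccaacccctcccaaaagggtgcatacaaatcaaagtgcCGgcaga
Ddx3y, chrY:623063-623291: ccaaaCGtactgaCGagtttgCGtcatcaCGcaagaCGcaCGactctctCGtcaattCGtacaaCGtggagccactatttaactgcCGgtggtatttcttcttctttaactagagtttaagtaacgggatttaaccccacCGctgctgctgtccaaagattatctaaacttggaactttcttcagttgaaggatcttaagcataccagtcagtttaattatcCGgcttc
Gopc, chr10:52061303-52061379: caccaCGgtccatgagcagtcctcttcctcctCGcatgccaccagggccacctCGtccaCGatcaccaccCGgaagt
Neil2, chr14:63812561-63812684: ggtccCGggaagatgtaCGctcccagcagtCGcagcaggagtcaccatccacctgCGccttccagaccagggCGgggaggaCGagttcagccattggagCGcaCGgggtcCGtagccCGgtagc
Tet1, chr10:62342332-62342419: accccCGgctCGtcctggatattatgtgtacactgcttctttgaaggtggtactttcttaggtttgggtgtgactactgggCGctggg
Pax6, chr2:105522444-105522537: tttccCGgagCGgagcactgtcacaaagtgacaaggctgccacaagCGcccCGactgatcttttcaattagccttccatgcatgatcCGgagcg
Grb10, chr11:11925626-11925812: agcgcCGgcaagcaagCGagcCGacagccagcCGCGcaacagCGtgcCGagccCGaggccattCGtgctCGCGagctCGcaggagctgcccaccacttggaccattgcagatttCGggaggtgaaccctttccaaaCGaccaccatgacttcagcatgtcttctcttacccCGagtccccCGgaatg
The *Irgm1* stretch had 6 covered CpGs in 112 bp and the *Gopc* stretch 5 in 77 bp. In the *Ddx3y* stretch the first 9 CpGs had coverages of 14 in BS replicate 1 and of 52 to 53 in oxBS replicate 1, as reads that span all of them would give. The calls of neighbouring CpGs are therefore not independent of each other, and reads amplified by PCR without molecular identifiers are not independent molecules. Every interval and every test on calls covers counting error only.

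Between 44260435 and 61865967 calls were made per control library, and the median CpG was covered by 43 to 52 of them. The mean methylation level over CpGs was 26.9% in BS replicate 1 and 26.4% in oxBS replicate 1, and it was 31.7% in BS replicate 2 and 31.4% in oxBS replicate 2. The replicates therefore differed from each other by much more than BS from oxBS. BS exceeded oxBS by 0.444 percentage points in replicate 1 and by 0.301 points in replicate 2, a mean of 0.373 ± 0.101 points (SD, n = 2). The two-sided exact permutation test of the library means gave p = 0.67. It ignored the pairing by replicate, so the difference between the replicates entered it. With 2 libraries against 2 (n = 2 per group) no difference can give less than 0.33. When all calls were summed instead of averaging over CpGs, replicate 2 lay the other way, at -1.92 points against 0.425 points in replicate 1, and the mean turned to -0.746 points. The size of the overall estimate, and its sign, thus depended on whether CpGs or calls were weighted equally.

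At single CpGs the estimate was dominated by scatter. The central 95% of the differences ran from -22.6 to 24.5 points in replicate 1 and from -17.7 to 18.9 points in replicate 2, with a median of 0 in both. The SD over CpGs was 10.2 points in replicate 1 and 8.06 points in replicate 2, where counting error alone would give 6.35 and 6.34 points. Replicate 1 was thus the noisier of the pair. The differences of the replicates had a Pearson correlation of 0.00823 across CpGs, which share libraries and neighbouring reads and are not independent.

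The small excess of BS over oxBS was spread over the genome. All 19 of 19 autosomes had a positive mean in both replicates, between 0.307 points on chromosome 6 and 0.486 points on chromosome 12. Chromosome X, of which these male cells have a single copy, had 0.127 points in replicate 1 and 0.0927 points in replicate 2. Chromosome Y had only 93 covered CpGs, and BS minus oxBS was -5.57 points there in replicate 1 and -4.32 points in replicate 2. Without the 12 CpGs of the *Ddx3y* window, the other 81 gave 0.508 and -1.53 points.

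The estimate followed the methylation level. CpGs with a mean level under 10% in the 4 libraries, 348735 in all, had a difference of 0.108 points in replicate 1 and 0.0366 points in replicate 2. The mean was highest at levels from 50 to 60%, at 1.05 ± 0.611 points (SD, n = 2), and dropped to 0.173 ± 0.432 points at levels over 90%. Replicate 1 showed this rise and drop more steeply than replicate 2, from 1.48 points at 50 to 60% to -0.132 points over 90%, whereas replicate 2 peaked at 0.767 points between 70 and 80%. An intermediate level is also where a percentage has its largest counting error, and the SD over CpGs there was 17.5 points in replicate 1 and 14.4 points in replicate 2.

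Promoters and predicted CpG islands, where most CpGs were unmethylated, had the lowest estimates. The 307135 CpGs from 1 kb upstream to 0.5 kb downstream of a start site had 0.167 points in replicate 1 and 0.0833 points in replicate 2. Predicted CpG islands had 0.218 and 0.0544 points, above promoters in replicate 1 and under them in replicate 2. Introns had 0.750 and 0.719 points, more than exons at 0.557 and 0.258 points, and intergenic CpGs had 0.763 and 0.479 points. In both replicates the order was promoters, then exons, then introns, and the replicates of exons and of intergenic CpGs lay farther apart than those of introns.

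The regions also differed in their level, with BS levels of 4.70 and 5.45% in promoters and of 48.7 and 56.5% in introns. Restricted to CpGs at levels from 20 to 80%, introns had 1.27 points in replicate 1 and 1.05 points in replicate 2, promoters 0.969 and 0.562 points, exons 1.01 and 0.352 points, and intergenic CpGs 1.10 and 0.531 points. Introns were the highest of these 4 classes in both replicates. With distance from the nearest start site, the mean rose from 0.114 ± 0.0621 points within 0.5 kb to 0.712 ± 0.147 points between 10 and 100 kb, and was 0.559 ± 0.192 points beyond 100 kb (SD, n = 2). These are differences of values without a test across CpGs, and when calls were weighted equally all 5 regions turned negative on average, introns at -0.450 points among them.

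**Figure D1:**
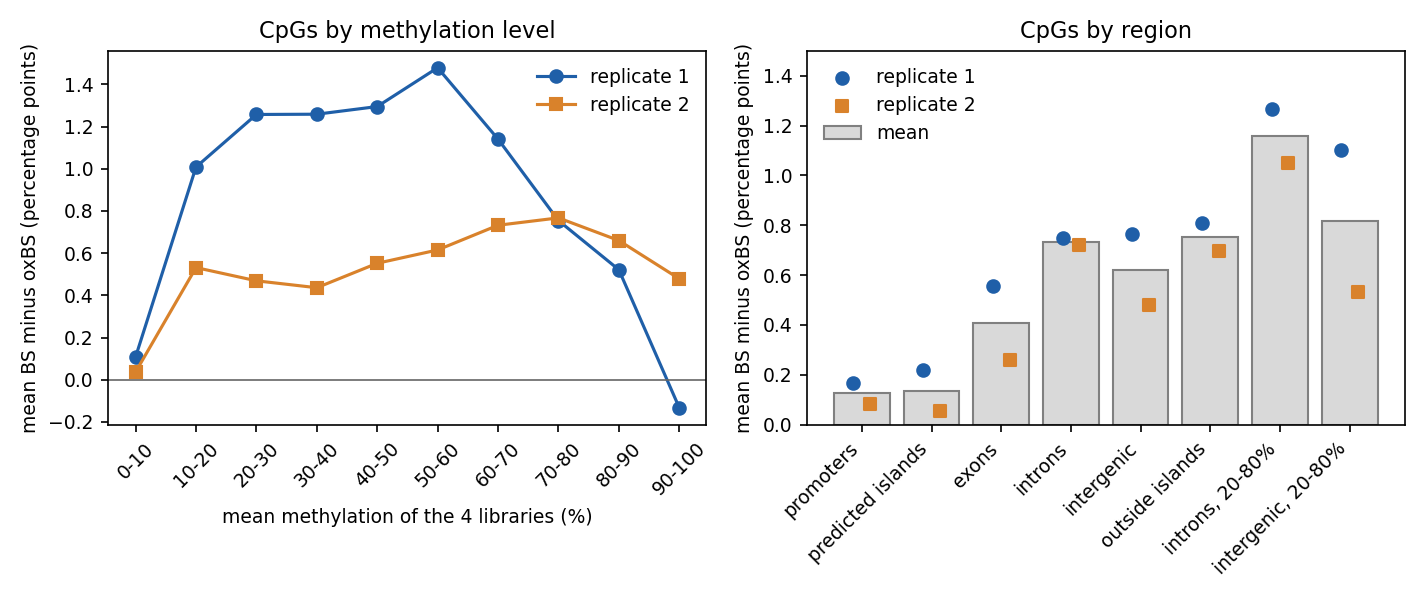
Mean BS minus oxBS in percentage points, per replicate, for CpGs binned by their mean level in the 4 control libraries (left, lines join the bins) and by region (right, bars give the mean of the 2 replicates). Replicate 1 reaches 1.48 points at levels of 50 to 60%, and introns lie above promoters in both replicates.

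Summing calls in fixed 1 kb windows lowered the counting error. Of 95242 windows with a covered CpG, 56073 had at least 3 and were tested, with a median of 5 CpGs and 324 calls per library. A window was called when a logistic regression with the replicate as a block gave q below 0.01 and the mean difference passed 10 points. BS was above oxBS in 1199 windows, 2.14% of those tested, and below oxBS in 627 windows, 1.12% of those tested. The windows in the direction that 5hmC cannot give were thus 52.3% as many as those in the direction that it can. CpGs gave a similar ratio, with 2020 called above (0.319% of the CpGs tested) and 1091 called below (0.172%), or 54.0% as many.

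The excess of windows above over windows below was present among small and moderate differences and absent among the largest. The median difference was 12.9 points in the called windows above and -13.5 points in those below. Differences over 10 points, called or not, numbered 2102 above and 1284 below, but those over 20 points numbered 91 and 81, and those over 30 points 2 and 7. Both BS libraries exceeded both oxBS libraries in 556 of the 1199 windows above, against a background of 8.18% of all windows tested, and both lay under both oxBS libraries in 335 of the 627 windows below, against 5.76%. The rule that called these windows used the same libraries, so these shares are descriptions.

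**Figure D2:**
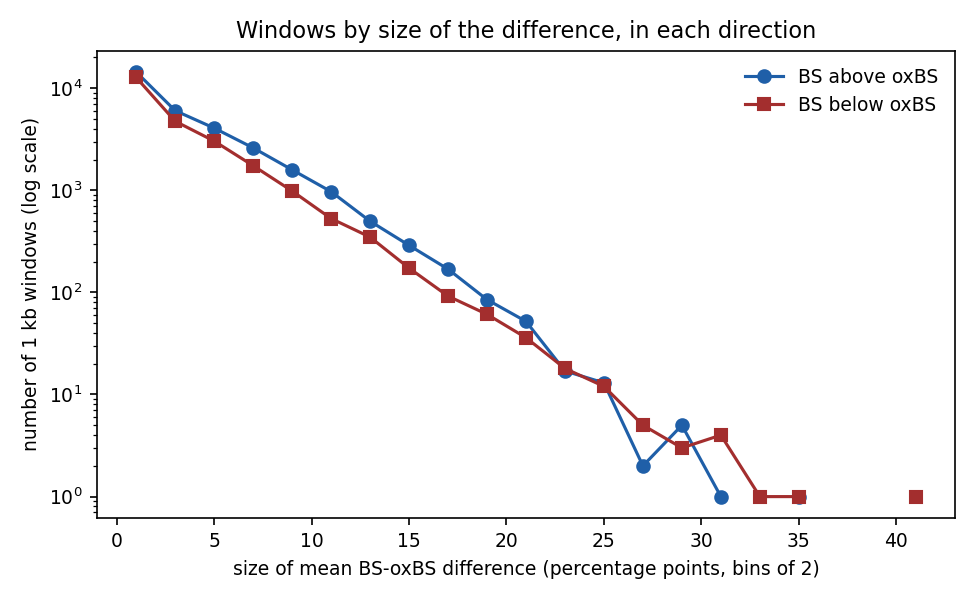
Number of 1 kb windows (log scale) by the size of the mean BS minus oxBS difference in bins of 2 percentage points, for windows with BS above oxBS (circles) and BS below oxBS (squares). The windows above are more numerous up to about 20 points, and beyond that the counts are 91 above and 81 below.

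A window that stood out in one replicate seldom did so in the other. Of the 2429 windows called above from replicate 1 alone, where they averaged 17.1 points, the mean in replicate 2 was 0.864 points, and 56.1% lay above oxBS there. The 1585 windows called below from replicate 1 averaged 0.309 points in replicate 2, and 46.2% lay below. Without any choice, all windows averaged 0.523 points in replicate 2, with 52.4% above and 45.5% below. Chosen from replicate 2, 909 windows above averaged 1.63 points in replicate 1, where all windows averaged 0.625 points. There 59.8% of them lay above, against 51.8% of all windows. The 564 windows below averaged 0.633 points in replicate 1, and 43.4% of them lay below, against 42.2% of all windows. Called above from each replicate on its own were 75 windows, where replicate 1 called 4.33% and replicate 2 called 1.62% of all windows above. Called below from each were 34 windows, where the shares were 2.83% and 1.01%. Over all windows the difference was positive in both replicates in 27.9% and negative in both in 19.6%, and the correlation of the replicates was 0.0136.

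**Figure D3:**
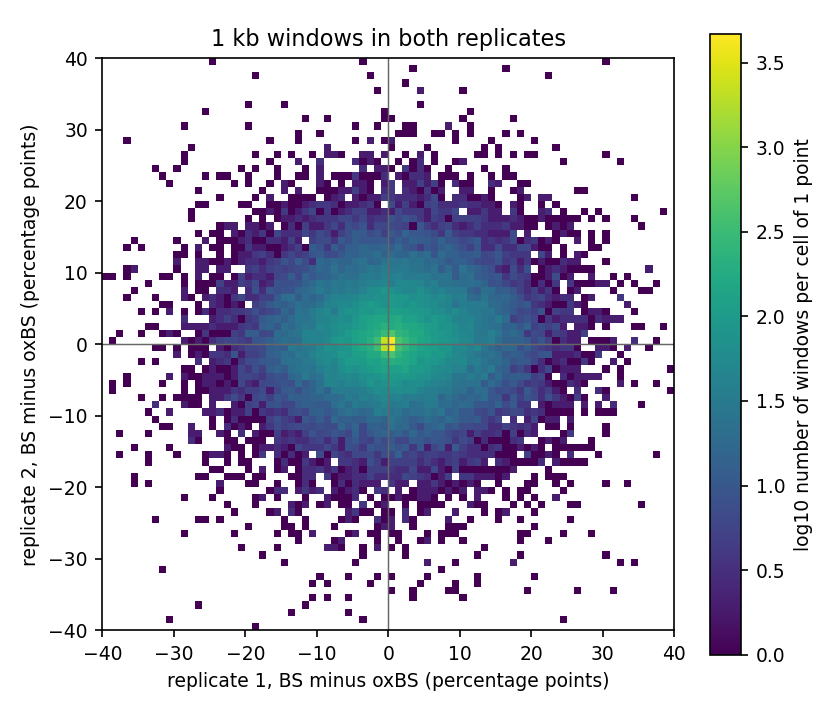
BS minus oxBS of each 1 kb window in replicate 1 (x axis) and replicate 2 (y axis), in percentage points, coloured by the log10 number of windows per cell of 1 point (30 windows lie outside the axes). The cloud is round around 0 and wider along replicate 1, with an SD of 7.49 points against 6.12 points in replicate 2.

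The spread of windows was larger than counting error, by a factor of 3.24 in the variance when 1 factor was shared by all windows. With that factor in the test, 14 windows stayed above (0.025% of those tested) and 6 below (0.0107%). limma on log ratios, which takes the error from the replicates, called 0 windows in either direction at an adjusted p below 0.01. At an unadjusted p below 0.05 it counted 536 above and 318 below. These unadjusted counts also required the mean difference to pass the limit used for calls. They therefore cannot be compared with the share that p alone would give by chance. The calls of single windows named from here on therefore rest on a test that treats calls as independent, and the values in each library are given beside them.

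By the class of sequence, introns had 394 windows above and 181 below (2.81% and 1.29% of 14010 windows), and intergenic sequence had 554 and 304 (3.30% and 1.81% of 16784 windows). Promoters had 97 above and 38 below, or 0.592% and 0.232% of 16395 windows. Exons had 149 and 102, or 1.76% and 1.21% of 8459 windows. The ratio of below to above was 39.2% in promoters, 45.9% in introns, 54.9% in intergenic sequence and 68.5% in exons. Windows called above and below resembled each other in median GC content, at 49.3% and 48.4%, and in median distance to a start site, at 21.9 and 23.3 kb. Their median levels were 66.9% and 68.0%, but a difference over 10 points itself depends on the level. They also resembled all windows at levels of 20 to 80%, with a median GC content of 49.8% and a distance of 19.4 kb.

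The 12 windows with the largest differences above, among those with at least 5 CpGs and more than 5 points in each replicate, had mean differences between 20 and 23.4 points. Their levels rested on 74 to 444 calls per library, and the 95% Wilson intervals of all named windows were 5.47 to 24.1 points wide. The window upstream of *Irgm1*, which encodes an interferon-inducible immunity-related GTPase, lay at chromosome 11, 48685000 to 48685999, in the promoter. Its BS levels were 83.3% (interval 75.2 to 89.2) in replicate 1 and 82.3% (76.1 to 87.2) in replicate 2. Its oxBS levels were 64.2% (56.2 to 71.5) and 60.1% (52.8 to 67). The BS and oxBS libraries did not overlap, as in 8.18% of all windows in this direction, and 4 of the 6 CpGs lay above in both replicates.

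Another 3 windows had similar differences in both replicates. Near *Bod1*, a gene for chromosome biorientation in mitosis, a window 65185 bp from the start site (chromosome 11, 31506000 to 31506999) had BS levels of 75.8% and 85.7% and oxBS levels of 54.4% and 66.7%. Near *F9*, which encodes coagulation factor IX, a window at chromosome X, 57182000 to 57182999, had BS levels of 72.6% and 82.1% and oxBS levels of 50.6% and 63.6%. In *Plxna3*, a plexin that serves as a semaphorin receptor in axon guidance, 7 of 8 CpGs were coding, and the levels were 78.4% and 87.5% in BS against 57.0% and 67.1% in oxBS. In all 3 windows the lower BS library still exceeded the higher oxBS library.

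The window near *Gm5114* (chromosome 7, 46610000 to 46610999) was the only one of the 12 that stayed past the threshold with the shared overdispersion (q = 0.0099). It had 73.3% and 90.5% in BS and 56.7% and 67.1% in oxBS. In replicate 2, the CpGs of this window were above without exception, by 11.2 to 35.5 points, and 6 of the 7 were above in replicate 1 too. *Thbd*, the gene of thrombomodulin, had 6 coding CpGs within a predicted island, with 83.7% and 76.2% in BS and 58.7% and 61.0% in oxBS.

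In the other 6 windows one replicate had the larger part of the difference. The window with the largest mean, 56339 bp from the start site of *Car1* (a carbonic anhydrase), had 72.4% in BS against 36.1% in oxBS in replicate 1, and 79.7% against 69.2% in replicate 2. The windows near *Zfp536*, a zinc finger protein of the nervous system, in coding sequence of *Frem2*, an extracellular matrix protein, and in an intron of *Grinl1a* had differences of 30.1 to 34.7 points in replicate 1 and of 8.50 to 11.6 points in replicate 2. Near *1700017N19Rik* it was replicate 2 that had the larger one, 32.7 points against 11.6 points. Near *4931400O07Rik* the differences were 26.7 and 14.8 points. Without replicate 1, the windows of *Zfp536* and *Grinl1a* no longer passed 10 points. At a coverage minimum of 20, the *Grinl1a* window dropped to 12.02 points and lost its call.

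The 6 most negative windows, chosen by the same limits, had means between -33.5 and -22.8 points. The farthest from 0 lay just upstream of *Ddx3y*, a Y-linked RNA helicase gene (chromosome Y, 623000 to 623999). Its levels were 21.1% and 64.3% in BS and 66.0% and 86.4% in oxBS, a mean of -33.5 points, and its q with the shared overdispersion was 1.5e-07. Of its 12 CpGs, 10 lay below in both replicates, by as much as -89.1 points in replicate 1. In an intron of *Gopc*, the gene of a Golgi-associated PDZ protein, BS levels were 74.2% and 75.4% and oxBS levels 98.9% and 97.2%, and all of its 5 CpGs were below in both replicates (-24.8 and -21.9 points for the window).

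The other 4 were uneven between replicates, as were some of the windows above. In coding sequence of *Myh13*, a muscle myosin heavy chain, the differences were -10.6 and -35.0 points. Near *Neto1*, which encodes an auxiliary subunit of kainate receptors, they were -11.9 and -36.5 points, near *2410137M14Rik* -13.4 and -37.5 points, and near *Refbp2* -35.4 and -14.1 points. The limits by which the named windows were chosen required the same direction in both replicates. That their replicates shared a direction was therefore fixed by the choice, above as well as below. Neighbouring CpGs that moved together were found in both directions, but they were largely read from the same molecules and added up to the window difference used for the choice.

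**Figure D4:**
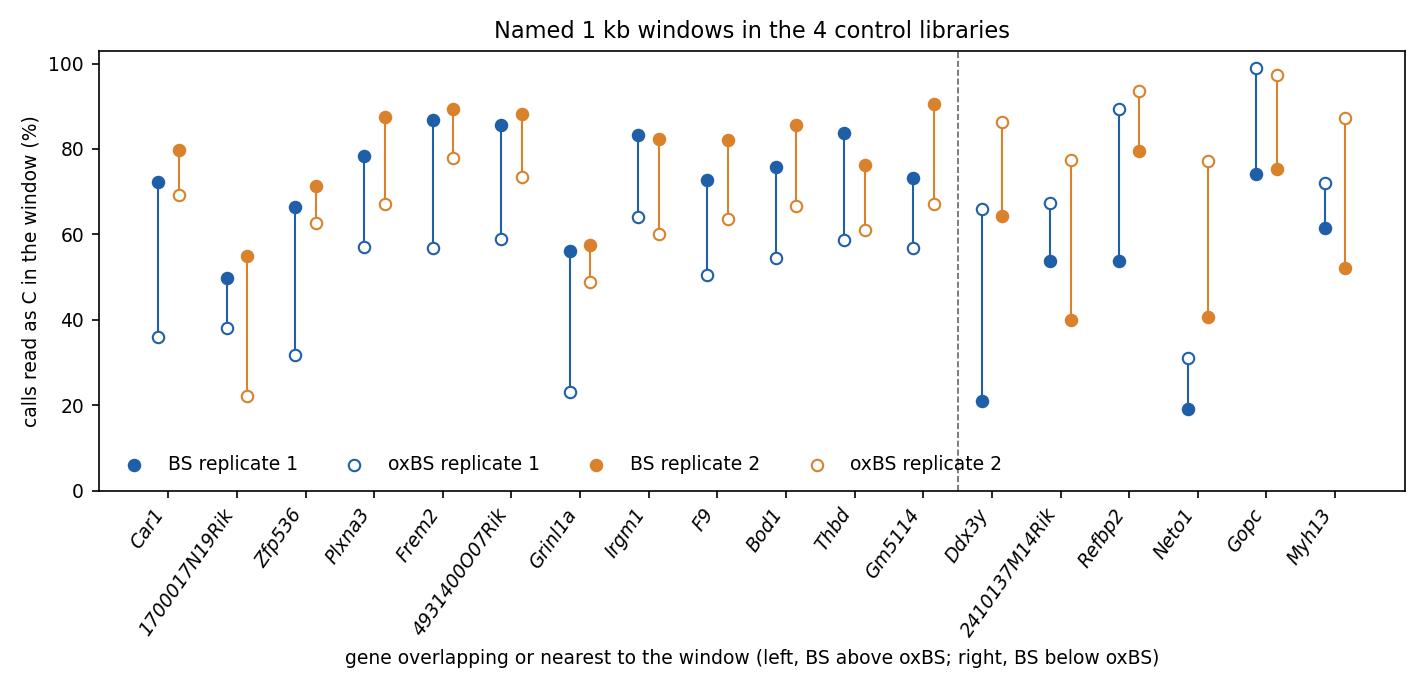
Percent of calls read as C in the 12 windows with BS above oxBS (left of the dashed line) and the 6 with BS below oxBS (right), for BS (filled) and oxBS (open) of replicate 1 and replicate 2, joined within a replicate. BS lies 20 to 23.4 points above oxBS on average at left and as much as 33.5 points below it at right, in *Ddx3y* (-33.5).

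At single CpGs with a coverage of at least 20, the largest differences above included CpGs near *BC057022*, in an intron of *Pnoc* (the precursor of the neuropeptide nociceptin), near *Eif4ebp1* (a repressor of translation initiation) and in an intron of *Spnb1* (a spectrin). The CpG near *BC057022*, at position 115010540 of chromosome 5, had 63.2% and 74.1% in BS and 34.0% and 15.8% in oxBS, at coverages of 27 to 50. The *Pnoc* CpG, at position 66042128 of chromosome 14, had 74.6% and 65.0% in BS and 20.9% and 32.6% in oxBS. Its only covered neighbour within 100 bp had a mean difference of 2.94 points. The 3 largest differences below were as far from 0. A coding CpG of *Gm996*, at position 25432923 of chromosome 2, had 18.9% and 40.5% in BS and 68.5% and 80% in oxBS.

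Genes of 9 lists were described, and all 15232 protein-coding genes with at least 3 covered CpGs served as the comparison. Over all of these genes, 1.56% of the windows were above and 0.775% below, the median gene difference was 0.104 points, and 31.9% of genes were above in both replicates and 18.6% below in both. The lists held between 9 and 119 windows and between 0 and 4 called ones, so their shares rest on very few windows.

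Among the genes that make, read and remove 5hmC, 2 of 57 windows were above (3.51%) and 1 was below (1.75%), in 18 of 20 listed genes with 3 or more CpGs. The median difference was 0.412 points, with 7 genes above in both replicates and 2 below in both. *Neil2*, a DNA glycosylase of base excision repair, had 10 CpGs in a window just upstream of its start (-259 bp), with 68.1% and 35.8% in BS and 56.9% and 23.6% in oxBS (q = 4.1e-07). Its differences of 11.2 and 12.2 points were close to each other, although its levels differed more between replicates than between BS and oxBS. *Tet1* had 3 coding CpGs with BS below oxBS, at 63.1% and 84.8% in BS and 76.7% and 93.4% in oxBS. The *Tet2* window, also coding, was called above on replicate 1 alone: its differences were 31.2 points there and -2.31 points in replicate 2. *Tet3*, the gene targeted in the other cells, had 74 covered CpGs in 8 windows with none called, and its differences were 0.742 and 2.67 points.

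Of 46 windows in DNA methyltransferases and methylation readers, 1 was above (2.17%) and 0 were below, against 1.56% and 0.775% of the windows of all genes, and the median difference of the 16 genes was 0.251 points. The window above lay in *Dppa3*, which encodes a protein that protects methylation in the zygote, with 63.1% and 85.7% in BS and 47.1% and 69.7% in oxBS. Its differences were 16.0 and 16.1 points, but BS replicate 2 had only 56 calls there. *Dnmt3a*, a de novo methyltransferase, had 2.35 points in replicate 1 and -0.399 points in replicate 2, and *Dnmt1*, the maintenance enzyme, had 2.64 and -0.359 points.

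Neural progenitor genes had 0 windows above and 2 below (2.15%) among 93, against 1.56% and 0.775% of the windows of all genes. Both windows below were in *Pax6*, the transcription factor of radial glia. The first, just upstream of a start site (-130 bp), had 45.1% and 19.8% in BS and 65.7% and 34.8% in oxBS. The second had 71.3% and 54.6% in BS and 78.8% and 68.9% in oxBS. The call of the second was lost with the Mantel-Haenszel test, without replicate 2 (-7.44 points) and when its CpGs were averaged (-7.46 points, from -2.81 and -12.1 points in the replicates). The level of *Pax6* differed between the replicates, and its 54 covered CpGs together gave 1.24 points in replicate 1 and -3.75 points in replicate 2. The median of the 24 genes was 0.226 points, with 5 above in both replicates and 3 below in both. *Nes*, the intermediate filament gene of neural progenitors, had 1.19 and 0.447 points, and *Fgfr1*, a fibroblast growth factor receptor with 105 covered CpGs, had 1.77 and 2.03 points.

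Of 119 windows in neuronal differentiation genes, 1 was above (0.84%) and 0 below. It lay in an intron of *Rbfox3*, which encodes the neuronal nuclear antigen NeuN, with 57.4% and 87.7% in BS and 46.9% and 55.7% in oxBS. The gene as a whole, with 283 covered CpGs, had differences of -1.08 and -0.395 points, and none of its other 30 windows was called. The median of the 22 genes was 0.454 points, with 10 above in both replicates and 5 below in both.

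Imprinted genes had 3 of 59 windows above (5.08%) and 1 below (1.69%). The study describes imprinted loci from these samples, so this list is not independent of them. Methylation at the control regions of these genes is carried by one parental allele. In *Grb10*, an adaptor of growth factor receptors, 16 CpGs near a start site had 55.2% and 36.4% in BS and 38.0% and 28.5% in oxBS. In *Snrpn*, a gene of splicing ribonucleoproteins, the levels were 30.1% and 30.2% in BS and 10.4% and 24.4% in oxBS. In *Igf2*, the growth factor gene, they were 79.3% and 78.8% in BS and 66.0% and 71.9% in oxBS. All 3 were above in both replicates, with 5.81 to 7.95 points in replicate 2 and 13.3 to 19.7 points in replicate 1, and none passed 10 points without replicate 1. This order depended on summing calls. Averaged over CpGs, *Igf2* had 8.21 points in replicate 1 and 16.3 points in replicate 2, *Grb10* 19.6 and 13.8 points, and *Snrpn* 18.4 and 1.76 points. The window below lay in *Meg3*, a maternally expressed noncoding RNA, and came from replicate 2 alone, at -26.3 points against 0.914 points in replicate 1. The median over the 22 genes was -0.0258 points, with 5 above and 5 below in both replicates.

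No window was called in either direction in pluripotency genes (0 of 44) or in markers of feeder fibroblasts or mesenchyme (0 of 14), endoderm (0 of 25) and mesoderm (0 of 9), which are other cell types a culture from ES cells could hold. Over all genes only 1.56% of the windows were above and 0.775% below, so lists this short could hold none at those shares. The logistic regression is the test behind these counts, and limma called 0 windows over the whole genome as well. *Esrrb*, a nuclear receptor of the ES cell network, had differences of -0.597 and -0.265 points over 91 CpGs, *Klf5* 0.0279 and 0.00193 points, and *Klf4* 0.0828 and 0.662 points. Among the endoderm genes, the transcription factors *Gata4*, *Gata6* and *Sox17* had mean levels from 0.0986 to 21.8%, and their differences lay between -0.576 and 1.46 points. The mesoderm factors *Mesp1*, *Eomes* and *T* had differences between -0.349 and 4.61 points. *Pdgfra*, *Col1a1* and *Thy1*, the mesenchymal markers with most CpGs, had differences from -6.67 to 5.23 points, and *Col1a1*, a fibrillar collagen gene, was positive in both (5.23 and 4.43 points).

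Called windows were also counted per gene. A window above lay in 612 protein-coding genes, a window below in 324, and both in 26, where 15232 genes had at least 3 covered CpGs. At least 2 windows above were found in 49 genes and at least 2 below in 7. Windows above were also the more frequent, at 1.56% against 0.775% of the windows of all genes, and no expected count of such genes was computed. The 7 genes with 2 windows below were *Gm20388*, *Gfra1*, *Sdk2*, *Atp8a1*, *Myh13*, *Pax6* and *Trim66*. The genes with 3 or more windows above, chosen after their values were seen, were *Gm20388*, *Asap2*, *Msi2*, *Odz2*, *Slc39a11* and *Zbtb7c*, all long genes. *Gm20388*, an annotated locus that spans other genes, had 4 windows above and 2 below among 479. *Msi2*, an RNA-binding protein of neural progenitors and stem cells, had 3 above and 0 below among 18, and its 119 CpGs gave 2.64 and 1.20 points. The 3 windows of *Msi2* had 20.3, 13.4 and 14.6 points in replicate 1 and 0.799, 8.02 and 17.8 points in replicate 2. *Odz2*, a teneurin, had 3 above among 12, but its 126 CpGs gave 3.14 points in replicate 1 and -0.795 points in replicate 2. The 3 windows of *Odz2* had -0.381, 3.12 and 0.255 points in replicate 2. *Asap2*, a GTPase-activating protein, was above in both replicates over its 154 CpGs, by 1.10 and 2.16 points.

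The windows that passed with the shared overdispersion were taken by that test and not by the naming rule. The test applies 1 factor to all windows, whatever the spread of each. With an overdispersion per window, 0 were called in either direction. Besides *Gm5114*, the 13 others above included a window near *Npl*, with 77.1% and 89.4% in BS and 49.2% and 67.7% in oxBS, and a window in an intron of *Lrrc20*, with 91.5% and 94.1% in BS and 75.8% and 78.4% in oxBS. In coding sequence of *Mcm2*, a subunit of the replicative helicase, BS was above by 33.1 points in replicate 1 and by 5.37 points in replicate 2. Some rested on replicate 2, with 25.4 points near *Prdm9* and 22.9 points in *1190002H23Rik*. Replicate 1 had 3.12 and 0.0092 points there. The 5 windows below besides *Ddx3y* included one in an intron of *Nsf*, a vesicle fusion ATPase, with 68.4% and 91.0% in BS and 98.6% and 95.8% in oxBS. Another lay in the promoter of *Avpr1a*, a vasopressin receptor, with 16.2% and 13.3% in BS and 25.8% and 24.6% in oxBS. When its CpGs were averaged instead of summing calls, that window had 2.30 points in replicate 1 and -4.15 points in replicate 2, and only 4 of its 23 CpGs lay below in both replicates. In coding sequence of *Nyx*, the window below came from replicate 2 alone, at -26.0 points against 1.76 points in replicate 1.

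The same subtraction in shTet3 NPCs shares no library with the control one. Over their own 687393 CpGs, the mean difference was 0.281 points in replicate 1 and 0.334 points in replicate 2, against 0.444 and 0.301 points in the control. In the 54369 windows that could be tested in all 8 libraries, 1140 were above in the control (2.10%) and 598 below (1.10%), and in shTet3 1096 were above (2.02%) and 721 below (1.33%). Called above in both were 59 windows, 5.18% of those of the control and 5.38% of those of shTet3, and called below in both were 15, or 2.51% and 2.08%. The control windows above had means of 0.789 and 1.39 points in the shTet3 replicates, where all windows had 0.415 and 0.491 points. The control windows below had -0.257 and 0.714 points there. Of the control windows above, 57.4% had a positive mean in shTet3, compared with 53.9% of all windows. Of the control windows below, 48.5% had a negative mean in shTet3, compared with 44.6% of all windows. In these shares the excess was of similar size in the direction that 5hmC cannot give. In the means it was not. The control windows above exceeded all windows in both shTet3 replicates, whereas those below lay under all windows in replicate 1 only.

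The difference between the control and shTet3 estimates was tested as an interaction. It was called in 1353 windows with the control estimate higher (2.49%) and in 1065 with it lower (1.96%), and with the shared overdispersion in 13 in all. Of the 12 windows above, 11 were measured in shTet3, and the interaction passed at *Plxna3*, *Irgm1*, *F9*, *Bod1*, *Thbd* and *Gm5114*. These windows were chosen by their control difference, which is one side of the interaction, so their interaction is given as a description. *Bod1* had -4.69 and 1.48 points in shTet3, and *Irgm1* had 8.61 and 5.12 points. Near *Car1*, shTet3 was above as well, by 7.53 and 23.3 points, and the interaction did not pass (q = 0.25). Of the windows below, *Refbp2* was also below in both shTet3 replicates, at -22.3 and -16.6 points, and its interaction did not pass (q = 0.041). So was *Myh13*, at -5.85 and -5.25 points. *Ddx3y*, in contrast, had 11.2 and -2.52 points in shTet3.

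**Figure D5:**
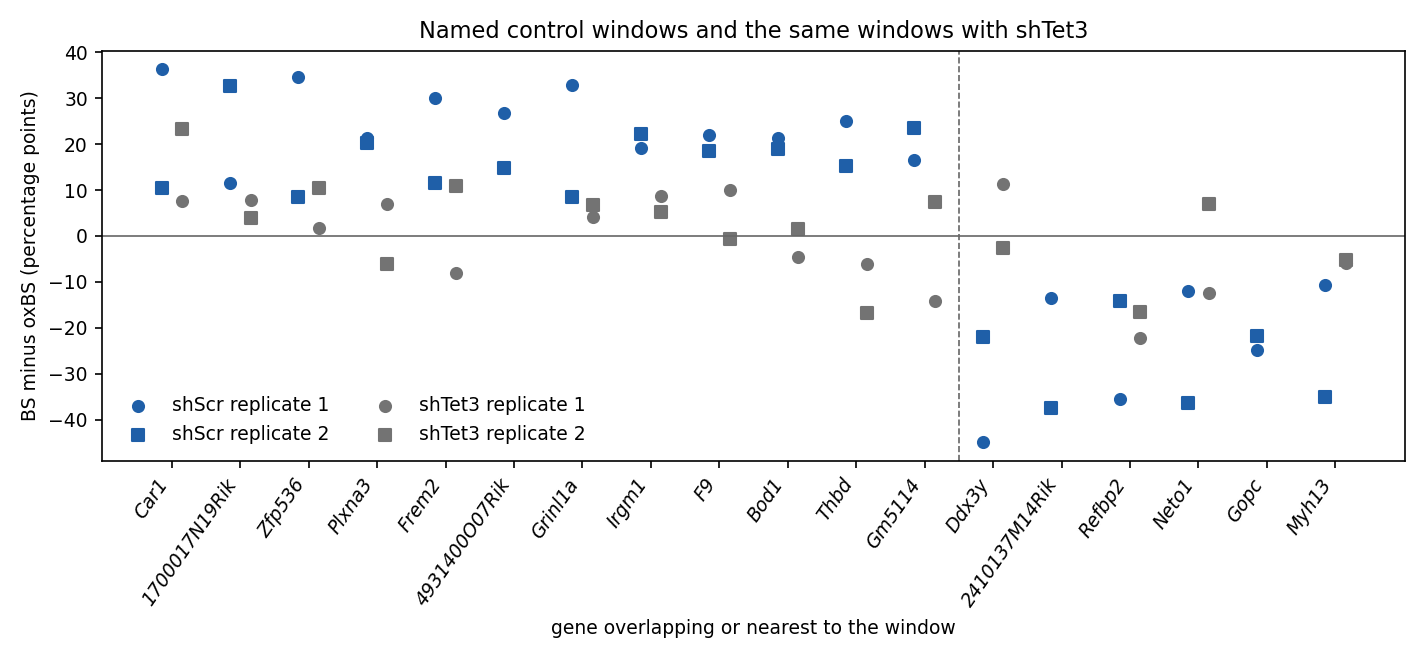
BS minus oxBS in percentage points in the named windows for the 2 control replicates (shScr) and the 2 shTet3 replicates, where 3 windows have no shTet3 value. The windows above of *Car1*, *1700017N19Rik*, *Zfp536*, *Grinl1a* and *Irgm1* keep their side of 0 in all 4 replicates. So do the windows below of *Refbp2* and *Myh13*, and the others with a shTet3 value do not.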

How the data were processed

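oxRRBS libraries of control NPCs (2 BS, 2 oxBS) and, for comparison, of shTet3 NPCs were analysed, grouped by their labels. Reads had been trimmed with the RRBS setting of Trim Galore and aligned by Bismark (bowtie2), and the calls were formatted for methylKit, with versions not given in the sources used here. Per CpG and library, the coverage was deposited by the authors as a count of calls without normalization, and the methylated and unmethylated shares as a percent of the calls. Methylated counts were recovered as coverage times percent. The lowest coverage in any library was 5, so CpGs below it had been removed before deposit. Positions match CpGs of mm9 (NCBIM37), and genes were taken from GENCODE vM1. No spike-in was analysed here, so the efficiency of oxidation and of conversion could not be checked, and incomplete oxidation would lower BS minus oxBS.

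CpGs covered at least 10 times in each control library were kept. Calls were tested per CpG and per 1 kb window (at least 3 CpGs) by a logistic regression with the replicate as a block, a likelihood ratio test and an adjustment after Benjamini-Hochberg, at *q* below 0.01 and a mean difference within replicates over 10 percentage points. Alternatives included an overdispersion shared over features, limma 3.58.1 on log ratios of counts with 1 added, a Mantel-Haenszel test, other coverage minimums and window sizes, and leaving out each replicate. Python 3.11.15, NumPy 2.4.6, SciPy 1.17.1 and pandas 2.3.3 were used. The likelihood ratio test, with and without the replicate block, was tried on simulated windows with independent calls. Such calls have no overdispersion, unlike those of the libraries, and the other tests were not simulated. CpG islands were predicted from 500 bp windows with 55% GC or more and 0.65 or more of the CpGs expected from base composition.

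Replicate numbers pair the libraries because each DNA sample was split. In the check over 298341 CpGs between 5 and 95%, the BS and oxBS differences between replicates had a correlation of 0.432.

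Windows were named as the 12 above and the 6 below with the largest mean difference among called windows with at least 5 CpGs and over 5 points in each replicate. CpGs were named as the 5 above and the 3 below among called CpGs covered at least 20 times in each of the 4 libraries and with 1 direction in both replicates. One of these CpGs is not reported here. A window or CpG takes the name of the protein-coding gene it overlaps (with 1 kb upstream), otherwise of the nearest protein-coding start site. List genes were named where a called window lay in them, and in lists with none the 3 members with most covered CpGs. The members and gene lists were chosen with earlier results of these data known.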

Additional observations from a re-analysis of the deposited data

Results flagged for a closer look

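The BS minus oxBS difference of 10 named windows differed between control and shTet3 NPCs by the interaction test of the logistic regression at *q* below 0.01. Values are the control minus the shTet3 difference in percentage points. Above 0 were *Plxna3* at 20.5, *Irgm1* at 13.8, *F9* at 15.6, *Bod1* at 21.8, *Thbd* at 31.6, *Gm5114* at 23.5, *Tet2* at 16.2 and *Neil2* at 11.4 points. Below 0 were *Ddx3y* at -37.8 and *Neto1* at -21.4 points. All 10 had been chosen for a control call, and the groups have 2 replicates each. With the overdispersion shared over windows, the interaction was called in 13 windows of the genome.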

How the results depend on the processing

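The mean BS minus oxBS turned negative when calls were weighted equally (-0.746 points), also without the coverage minimum (-0.873 points, chosen after seeing the data), and so did promoters (-0.295), predicted islands (-0.00984), exons (-0.386), introns (-0.450) and intergenic CpGs (-0.447). Introns at a coverage minimum of 20 gave 0.780 points. The number of CpGs above and below was 978 and 497 with the shared overdispersion. It was 0 and 0 both with an overdispersion per CpG and with limma. There the unadjusted p was below 0.05, with the difference past the limit used for calls, in 182 and 128 and in 11362 and 8482 CpGs. Every unadjusted count given below also required the difference to pass that limit. Leaving out 1 replicate gave 29 to 4334 CpGs above and 17 to 2952 below, with the low counts without replicate 1, and 909 to 2429 windows above and 564 to 1585 below. Windows above and below were 14 and 6 with the shared overdispersion (unadjusted 1058 and 560), and 0 and 0 with an overdispersion per window (unadjusted 43 and 30) and with limma (536 and 318). They were 2545 and 1321 over 5 points, 3301 and 1772 without a limit on the difference, 2015 and 1066 with at least 1 CpG, and 441 and 232 with at least 5. A coverage minimum of 20 gave 415 windows below. Without the replicate block, 2086 CpGs and 1430 windows were above and 1076 and 779 below, and 5 of 29 named windows lost their call (*Tet2*, *Dppa3*, both of *Pax6* and *Meg3*). On autosomes alone, added after seeing the data, 1159 windows were above and 591 below. The interaction was called in 2418 windows, and in 13 with the shared overdispersion (unadjusted 2229). Of the named windows, *Tet2* reversed without replicate 1 (-2.31 points, and 31.2 without replicate 2) and *Meg3* without replicate 2 (0.914 points, and -26.3 without replicate 1), and limma called 0 of 29, the shared overdispersion 2. In every setting that called any window or CpG, more were above than below. The causes of these changes were not tested.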
